A study of Mus musculus with 6 samples.

Results

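The keratin genes measured on these arrays numbered 48 of the 30927 named genes tested. They were taken as every gene whose symbol is Krt followed by digits alone, with keratin-associated proteins left out, and a gene with several rows was read from its brightest row. The symbols Krt6a, Krt6b, Krt33a and Krt33b carry a letter and fall outside that choice. The cells were BMEL hepatoblasts, an immortalized line derived from livers of wild-type CD1 mouse embryos at E12.5, with no other genetic change given in the labels. Of the 6 samples, 3 received 500 ng of a mimic of mmu-miR-337-3p and 3 received 500 ng of a negative control mimic, both with Lipofectamine 2000, in collagen-coated wells seeded with 50000 cells, and RNA was taken at 48 h. The comparison asks which genes differ once miR-337-3p is supplied to hepatoblasts. The labels do not say that replicates were separate cultures, so every p-value here rests on a spread between arrays that may be technical.

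Keratins are the intermediate filament proteins of epithelial cells. A filament is built from heterodimers of an acidic type I keratin with a basic type II keratin, and the pair in use marks the kind of epithelium. Krt8 (type II) and Krt18 (type I) form the filament of nearly all simple epithelia and are the only abundant keratins of adult hepatocytes, while cholangiocytes, the cells of bile ducts, add Krt7 and Krt19. Krt20 is a type I keratin of intestinal epithelium, of the urothelial surface and of Merkel cells, and Krt23 is a less studied type I keratin reported in bile duct reactions of injured mouse liver. Krt5 and Krt14 form the filament of basal cells in stratified epithelia, and most other keratins belong to upper epidermal layers or to hair.

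The agent of the experiment is given by its mature sequence in RefSeq (GRCm38.p6, chr12:109585850-109585871, plus strand), with the seed, bases 2 to 8, in capitals.
mmu-miR-337-3p: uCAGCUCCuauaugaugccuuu

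Keratins split into a few bright genes and many near background. Neither deposited table gives a detection call, so the background was read from 1121 olfactory receptor genes, which are expected to be silent in liver cells. The 95th percentile of their mean signals was 4.83 on the log2 scale. Above it lay the means over the 6 arrays of 19 of the 48 keratins, against 15808 of all 30927 genes. Only 5 of the 19 keratins, Krt8, Krt18, Krt20, Krt19 and Krt7, had means over 9, a level chosen after the values were seen. Krt7 was the lowest of the 5 at 9.13, and the next keratin, Krt42, read 6.12. Just above and just below the background level lay Krt12 at 4.90 and Krt36 at 4.82. Means of the other 29 keratins ran from 3.30 (Krt72) to 4.82. Signals of different genes come from different probes, so the order of the bright keratins is not an order of abundance.

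**Figure D1:**
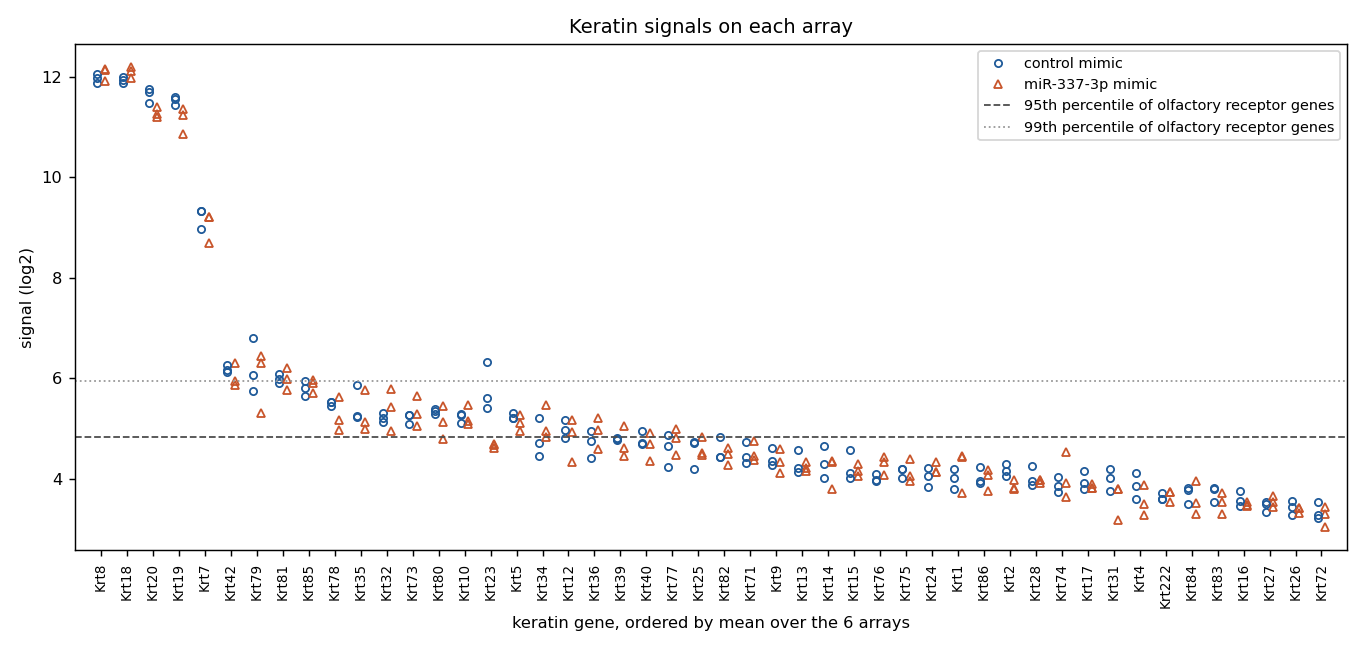
Signal (log2) of each of the 48 keratin genes on the 3 control mimic arrays (circles) and the 3 miR-337-3p mimic arrays (triangles), ordered by mean over the 6 arrays, with the 95th and 99th percentiles of olfactory receptor genes as lines. Krt8, Krt18, Krt20, Krt19 and Krt7 stand at 8.70 or higher on every array, and the means of the other 43 lie between 3.30 and 6.12.

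Most listed markers of the labelled cell type read above the background level, some of them dimly. Of 11 hepatoblast markers, 10 had means above it, against 15808 of all 30927 genes. Dlk1, a hepatoblast surface protein, was the exception at 4.79. Afp, Alb and Onecut1 read 6.35, 5.97 and 5.57, near the 99th percentile of olfactory receptor genes, 5.94. Brighter members included Cdh1 at 11.15, Hnf4a at 9.87 and Epcam at 9.55. Of 13 keratinocyte markers 7 were above the background level, among them Sprr1a at 12.42, while the basal layer regulator Trp63 and the desmosomal cadherins Dsg3 and Dsc3 were not. Above the level were also 4 of 10 mesenchymal and 2 of 8 blood cell markers, with Ptprc, the pan-leukocyte marker, below it at 3.38. In each of the keratinocyte, mesenchymal and blood cell lists 1 marker rose in limma, against 1.89% of all genes. Ivl, a cornified envelope protein, rose by 2.43 (adjusted p = 0.00537), a call that held without any single array. Of its list of 13 keratinocyte markers, 5 lay above 0 and 8 below, at a median of -0.10. Col1a1, a fibrillar collagen, rose by 0.59 (adjusted p = 0.0384), a call lost whichever array was left out (0.0794 to 0.118). Its mesenchymal list held 5 markers above 0 and 5 below, at a median of -0.04. Cd68, a macrophage lysosomal protein, rose by 1.18 (adjusted p = 0.0320), a call that held in 2 of 6 such fits (up to 0.115). Of the hepatoblast markers 8 lay below 0 and 3 above, at a median of -0.36, against 14262 and 16665 of all genes. In limma 6 of them had an unadjusted p under 0.05, against 15.1% of all genes and 4078 of the 15808 above background. Among these 6 markers Epcam, an epithelial adhesion protein, fell by 1.00 (adjusted p = 0.00682), where 1.68% of all genes fell. Alb, serum albumin, differed by -1.14 (adjusted p = 0.127, and 0.0249 with replicate number as a block). Summed linear signals of the hepatoblast list ran from 5301 to 5808 in control and from 4189 to 4512 in mimic arrays, with no overlap. Summed linear signals of the keratinocyte list ran from 6053 to 6923 in control and from 5618 to 5954 in mimic arrays, also with no overlap. Those of the mesenchymal list ran from 287 to 304 and from 292 to 319, and overlapped. Those of the blood cell list ran from 219 to 280 and from 345 to 494, with no overlap. A linear sum mostly follows its brightest genes, and the sums were not tested. In the hepatoblast list the brightest gene was Cdh1, which differed by -0.19. Next came Hnf4a, which differed by -0.35, and Epcam, with means of 10.05 in control and 9.05 in mimic arrays. The lower hepatoblast sums are therefore no measure of a fall across that list. In the keratinocyte list the brightest gene was Sprr1a, which differed by -0.21, and the next mean was 7.165 (Sfn). In the blood cell list it was Cd68 at 7.53, and the next mean was 5.46 (Csf1r). In the blood cell list 5 of 8 markers lay below 0, among them the macrophage markers Csf1r and Emr1 at -0.36 each, neither of which passed the test. The part of such cells or of the hepatoblast markers' shift in the keratin values was not tested, and in RNA from whole wells fewer cells of a type and less RNA per cell cannot be told apart.

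Krt23 was the 1 keratin that passed the adjusted threshold in limma after miR-337-3p mimic, and it fell. Its log2 signals were 5.42, 6.32 and 5.61 in control replicates 1 to 3 and 4.61, 4.68 and 4.69 in mimic replicates 1 to 3. The mimic arrays lay close together and below every control array, and control replicate 2 was the highest. The means were 5.78 ± 0.47 and 4.66 ± 0.04 (SD, 3 arrays per group), so Krt23 fell by 1.12 (SE 0.22) on the log2 scale to 0.460-fold of control (adjusted p = 0.0320, limma with Benjamini-Hochberg adjustment). The adjusted p was 0.0103 with the replicate number as a block. Its control mean was above the background level of 4.83 and its mimic mean below it, so the fold may understate the change and Krt23 counts among the 19 through its control arrays. Krt12 (4.98 in control and 4.82 in mimic arrays) and Krt34 (4.79 and 5.09) were likewise above the level in 1 group only. So was Krt36 (4.71 in control and 4.93 in mimic arrays), whose mean over the 6 arrays lay just below the level. The call was lost without control replicate 3 (adjusted p = 0.0603) or without mimic replicate 1, 2 or 3 (0.0889, 0.0917 and 0.0823 in limma). The log2 difference in those fits ran from -1.21 to -1.10. The call held without control replicate 1 (-1.30, limma adjusted p = 0.0443). It also held without control replicate 2, the highest array, but the difference shrank to -0.85 (limma adjusted p = 0.0292). In the authors' deposited table Krt23 has a signed fold change of -1.87 and an FDR p-value of 0.255, the smallest FDR p-value of any keratin there. The group averages there are bi-weight averages, 5.59 in control and 4.68 in mimic arrays, and not the plain means used here. Of all rows in that table, 5 have an FDR p-value under 0.05.

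With the call set at an adjusted p under 0.05, 0 of the 48 keratins rose and 1 fell. Of all genes tested 3.57% were called, 1.89% as risen and 1.68% as fallen, so the count of called keratins was near the background. The block gave the same counts for keratins while it called 8.58% of all genes. At an unadjusted p under 0.05 there were 4 keratins, Krt23, Krt20, Krt19 and Krt2, against 15.1% of all genes. The same 4 were the keratins whose mimic arrays all lay below their control arrays, which 8.33% of all genes did. For 0 keratins did the mimic arrays all lie above the control arrays, which 11.2% of all genes did. The differences were below 0 for 31 keratins and above 0 for 17, with a median of -0.07 against 0.02 over all genes. Compared by replicate number, 9 keratins were lower in all 3 pairs and 7 higher, against 18.5% and 24.1% of all genes.

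**Figure D2:**
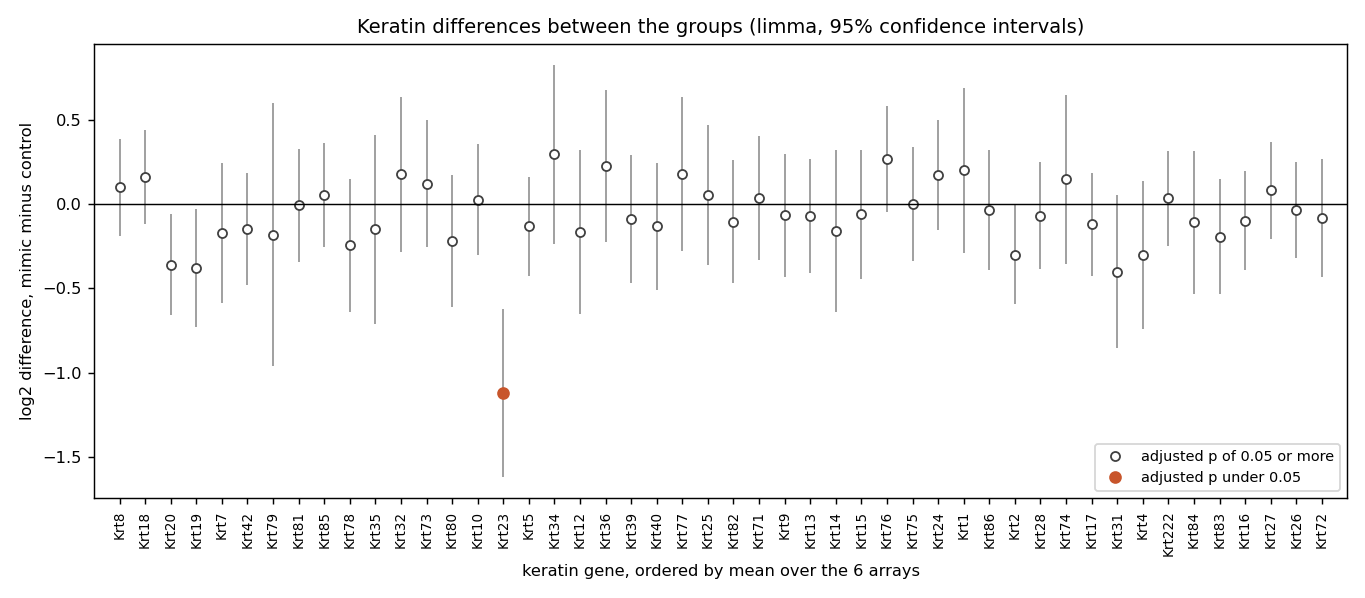
Log2 difference, mimic minus control, of each keratin with its 95% confidence interval from limma, ordered by mean signal. Krt23 at -1.12 is the 1 filled point, and the other differences lie between -0.40 and 0.30.

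The bile duct and intestinal keratins Krt19 and Krt20 read lower in the mimic arrays, without passing the test. Krt20 read 11.76, 11.70 and 11.48 in control replicates 1 to 3 and 11.26, 11.40 and 11.20 in mimic replicates 1 to 3. The groups did not overlap, and each mimic array was below the control array of its own number. The log2 difference was -0.36 with an SE of 0.13 and a 95% confidence interval of -0.66 to -0.06 (limma, adjusted p = 0.225, and 0.101 with the block).

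Krt19 read 11.59, 11.56 and 11.44 in control replicates 1 to 3 and 11.23, 11.37 and 10.87 in mimic replicates 1 to 3. Again the groups did not overlap, and mimic replicate 3 stood lowest. The log2 difference was -0.38 with an SE of 0.15 and an interval of -0.73 to -0.03 (limma, adjusted p = 0.286, and 0.108 with the block). The unadjusted intervals of both genes leave out 0, and the adjusted p-values over all genes do not pass.

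Krt7, the type II keratin of bile ducts, read 9.33, 9.34 and 8.98 in control replicates 1 to 3 and 9.21, 9.22 and 8.70 in mimic replicates 1 to 3. The groups overlapped, and replicate 3 was the lowest array of both. The log2 difference was -0.17 with an SE of 0.18 and an interval of -0.59 to 0.24 (limma, adjusted p = 0.794). Without mimic replicate 3 it was -0.0015.

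Krt8 and Krt18, the partners of the simple epithelial filament, read slightly higher in the mimic arrays, also without passing the test. Krt8 read 11.98, 12.05 and 11.88 in control replicates 1 to 3 and 12.14, 12.15 and 11.92 in mimic replicates 1 to 3. Krt18 read 11.88, 11.99 and 11.93 in control replicates 1 to 3 and 12.12, 12.20 and 11.97 in mimic replicates 1 to 3. For both genes mimic replicate 3 fell within the range of the control arrays. The log2 difference was 0.10 for Krt8 (SE 0.13, interval -0.19 to 0.39, limma adjusted p = 0.848) and 0.16 for Krt18 (SE 0.12, interval -0.12 to 0.44, adjusted p = 0.667). A fall of either gene by more than 0.19 on the log2 scale therefore lies outside its 95% interval. The RefSeq table also lists a pseudogene, Krt8-ps, and whether the Krt8 probes read it is not known here.

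Compared by replicate number, all 5 bright keratins kept their direction in all 3 pairs. Krt20 differed by -0.50, -0.30 and -0.29 in pairs 1 to 3, Krt19 by -0.36, -0.20 and -0.58, and Krt7 by -0.13, -0.12 and -0.28. Krt18 differed by 0.24, 0.20 and 0.04, and Krt8 by 0.16, 0.09 and 0.04. Among all genes with means over 9, 70.1% kept 1 direction in all 3 pairs, so this count says little about keratins. At the adjusted threshold 0 of the 5 passed in limma, against 8.14% of all genes with means over 9. At an unadjusted p under 0.05 there were 2 of the 5, against 30.3% of those genes.

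**Figure D3:**
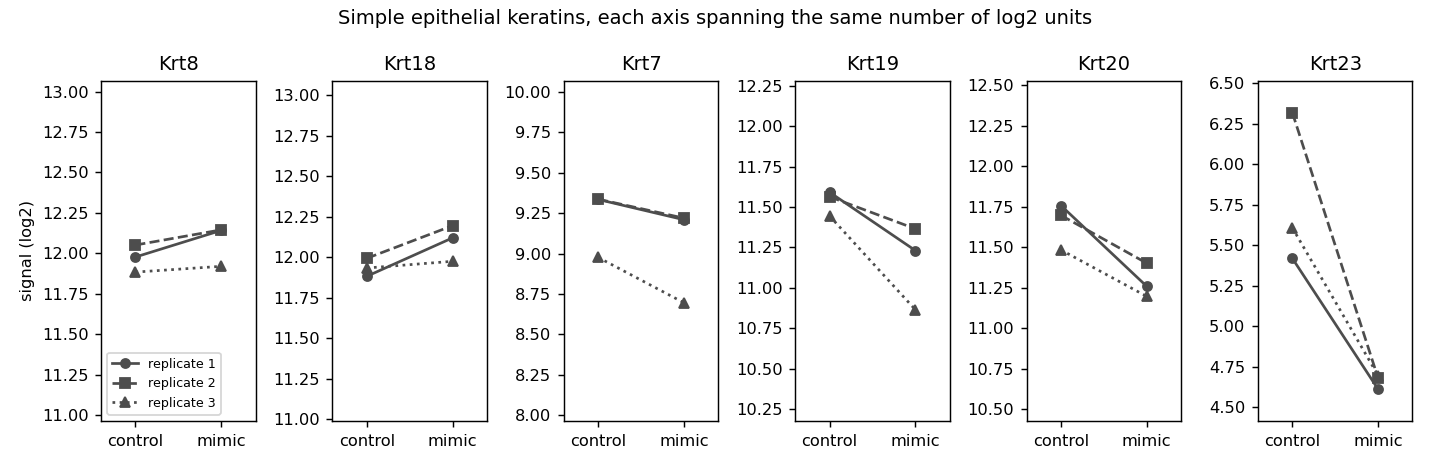
Signal (log2) of the 6 simple epithelial keratins, with lines joining the control and mimic arrays of the same replicate number and every axis spanning the same number of log2 units. Krt8 and Krt18 run slightly upward, Krt7, Krt19 and Krt20 downward, and Krt23 falls to between 4.61 and 4.69 on the mimic arrays.

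Set against Krt18 on the same array, Krt19 was lower in every mimic sample than in any control sample. Krt19 by itself already was, as were 8.33% of all genes. The within-array log2 difference Krt19 minus Krt18 was -0.29, -0.43 and -0.49 in control replicates 1 to 3 and -0.89, -0.83 and -1.11 in mimic replicates 1 to 3. The means were -0.40 ± 0.10 and -0.94 ± 0.15 (SD, 3 arrays per group), a shift of -0.54 (exact two-sided permutation test, p = 0.1, the smallest that 3 against 3 arrays allow, and 0.2 after adjustment over 2 such tests). The test cannot reach 0.05 in this design. A within-array difference does not tell which of its genes moved.

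Krt8 minus Krt18 was 0.10, 0.06 and -0.05 in control replicates 1 to 3 and 0.02, -0.05 and -0.06 in mimic replicates 1 to 3, and the groups overlapped. The shift was -0.06 (exact permutation test, p = 0.2, also 0.2 after adjustment). Krt20 minus Krt18, chosen after its values were seen and not tested, moved from -0.13, -0.30 and -0.45 in control replicates 1 to 3 to -0.86, -0.79 and -0.78 in mimic replicates 1 to 3, a shift of -0.52. The groups did not overlap there either. Krt7 minus Krt8, also not tested, was -2.64, -2.72 and -2.91 in control replicates 1 to 3. In mimic replicates 1 to 3 it was -2.93, -2.93 and -3.22, a shift of -0.27 without overlap.

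**Figure D4:**
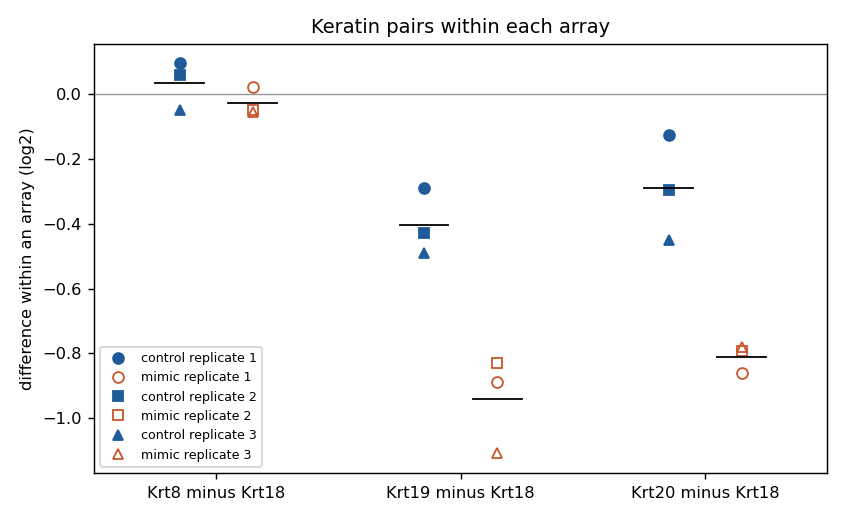
Within-array log2 differences between keratins on the 3 control arrays (filled) and the 3 mimic arrays (open), with group means as bars. Krt8 minus Krt18 overlaps between the groups, while Krt19 minus Krt18 and Krt20 minus Krt18 are lower on every mimic array.

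The other 13 keratins above the background level had means from 4.90 to 6.12 and none passed the test. Those with the highest means were Krt42 at -0.15 (SE 0.15), the sebaceous and upper epidermal keratin Krt79 at -0.18 (SE 0.34) and the hair keratins Krt81 at -0.01 (SE 0.15) and Krt85 at 0.05 (SE 0.14), all as log2 differences. Krt79 varied most among them, from 5.76 to 6.80 in control and from 5.31 to 6.44 in mimic arrays. Keratins of the upper layers of stratified epithelia included Krt78 at -0.25 (SE 0.17), Krt80 at -0.22 (SE 0.17), Krt10 at 0.03 (SE 0.14) and Krt12, the cornea keratin, at -0.17 (SE 0.21). Hair keratins included Krt35 at -0.15 (SE 0.25), Krt32 at 0.17 (SE 0.20) and Krt34 at 0.30 (SE 0.23), and the inner root sheath keratin Krt73 differed by 0.12 (SE 0.16). With Krt5, described next, these are 13 genes, and limma gave them adjusted p-values between 0.629 (Krt78) and 0.993 (Krt81). At the 99th percentile of olfactory receptor genes, 5.94, only Krt42, Krt79 and Krt81 of these stayed above the level beside the 5 bright keratins.

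Basal epidermal keratins stayed near background. Krt5 had log2 signals of 5.20, 5.32 and 5.21 in control replicates 1 to 3 and 5.11, 5.27 and 4.96 in mimic replicates 1 to 3, a difference of -0.13 (SE 0.13, limma adjusted p = 0.768). Its partner Krt14 read 4.33 ± 0.32 and 4.17 ± 0.31 (SD, 3 arrays per group), below the level in both groups, with a difference of -0.16 (SE 0.21, adjusted p = 0.850). Krt17, a keratin of wounded and activated epidermis, read 3.96 ± 0.18 and 3.84 ± 0.05 and differed by -0.12 (SE 0.13, adjusted p = 0.810). A low signal here may be background alone, so these rows can hardly show a fall.

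By the epithelium in which they are known, all 6 measured simple epithelial keratins had means above the background level, Krt23 through its control arrays only. The level was also passed by 1 of 3 basal keratins, 5 of 13 keratins of upper epithelial layers and 5 of 13 hair and nail keratins. For the inner root sheath and companion layer it was 1 of 9, and for activated epidermis 0 of 2. Krt42, above the level, and Krt222, below it, were not placed in a class. By type, 24 keratins were classed as type I, with a median log2 difference of -0.07 and 1 fall. Another 22 were classed as type II, with a median of -0.06 and 0 calls in limma and 1 at an unadjusted p under 0.05. Krt42 and Krt222 were given no type and are in neither count. Among the 29 keratins at or below the level, differences ran from -0.40 (Krt31) to 0.27 (Krt76). Krt2, an upper epidermal keratin, read 4.17 ± 0.13 and 3.87 ± 0.10, a difference of -0.30 (SE 0.13, adjusted p = 0.319 in limma), with no overlap between groups that both lay below the level. Krt36 and Krt39, the keratins next below the level, differed by 0.22 (SE 0.20) and -0.09 (SE 0.17), and a dimmer row of Krt36 differed by 0.08.

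Of the keratins outside the symbol rule, Krt6a differed by -0.34 (SE 0.24) and Krt6b by 0.62 (SE 0.26), with adjusted p-values of 0.620 and 0.298 in limma and means of 4.27 and 3.97. Krt33a and Krt33b differed by -0.04 and -0.19. Krt6a and Krt6b are near-identical paralogs, as are several hair keratins, so a probe set may read more than 1 of them.

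In the RefSeq gene table for GRCm38.p6, Krt20 and Krt23 are neighbours with 0 annotated genes between them, and Krt8 and Krt18 have 2 predicted genes between them. The table places 25 of the 48 members on chromosome 11, the type I cluster, and 22 on chromosome 15, which holds the type II cluster and Krt18, and 1 symbol, Krt85, was not matched. Promoters of both neighbouring pairs are shown because Krt20 and Krt23 were lower and Krt8 and Krt18 slightly higher in the mimic arrays. Each runs from 250 bases before to 50 after the annotated start in RefSeq (GRCm38.p6), written 5′ to 3′ on the gene's strand. They lie at chr11:99438104-99438403, minus strand for Krt20, chr11:99493071-99493370, minus strand for Krt23, chr15:102004293-102004592, minus strand for Krt8 and chr15:102027966-102028265, plus strand for Krt18. Capitals mark matches on either strand, overlaps included, to 4 motifs: the TATA box TATAAA, the caudal homeobox motif TTTATNG, the Sp and KLF motif CCNCNCCC and the AP-1 motif TGANTCA.
Krt20: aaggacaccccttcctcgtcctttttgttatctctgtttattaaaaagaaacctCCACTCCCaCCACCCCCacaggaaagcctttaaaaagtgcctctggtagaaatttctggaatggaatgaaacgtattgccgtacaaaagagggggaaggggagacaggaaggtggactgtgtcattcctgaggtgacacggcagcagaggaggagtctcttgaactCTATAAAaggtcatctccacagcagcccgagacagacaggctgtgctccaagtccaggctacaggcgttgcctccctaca
Krt23: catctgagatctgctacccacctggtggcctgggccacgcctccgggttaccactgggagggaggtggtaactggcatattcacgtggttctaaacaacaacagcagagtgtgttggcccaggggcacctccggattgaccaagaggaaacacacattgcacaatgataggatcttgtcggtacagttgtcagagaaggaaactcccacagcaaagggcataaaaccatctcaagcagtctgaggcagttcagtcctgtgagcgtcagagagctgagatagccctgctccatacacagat
Krt8: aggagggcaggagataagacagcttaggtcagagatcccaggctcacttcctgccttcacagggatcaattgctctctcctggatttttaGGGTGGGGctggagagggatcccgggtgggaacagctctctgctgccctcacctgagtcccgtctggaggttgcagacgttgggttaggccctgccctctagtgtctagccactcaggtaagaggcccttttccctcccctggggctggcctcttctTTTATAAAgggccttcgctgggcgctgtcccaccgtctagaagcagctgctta
Krt18: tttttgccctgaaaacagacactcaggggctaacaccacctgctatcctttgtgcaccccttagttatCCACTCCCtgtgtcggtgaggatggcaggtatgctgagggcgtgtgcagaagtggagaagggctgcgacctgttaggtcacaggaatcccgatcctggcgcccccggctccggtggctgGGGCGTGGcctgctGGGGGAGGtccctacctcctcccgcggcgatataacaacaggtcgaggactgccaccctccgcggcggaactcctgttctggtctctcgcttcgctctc

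The 4 promoters differed in these letters. The Krt20 window holds TATAAA at 29 bases before the start, overlapped by a match to TTTATNG on the other strand, and 2 matches to CCNCNCCC. The Krt23 window holds 0 matches to any of the 4 motifs. Krt8 has 2 overlapping matches to TATAAA, next to its annotated start, and 1 to CCNCNCCC, while Krt18 has 0 to TATAAA and 3 to CCNCNCCC. RefSeq promoters were matched for 34 keratins, with 35 windows. TATAAA was found in 18 of these 35 (51.4%), against 13.6% of 32851 promoters of the same length. TTTATNG was found in 15 (42.9%) against 10.9%, and a TTTATNG match can overlap a TATA box, as in Krt20. CCNCNCCC was found in 14 (40.0%) against 49.5%, and TGANTCA in 2 (5.71%) against 7.81%. Keratin genes are close relatives, so these windows are not independent, and a match is a description of letters and not a binding site.

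Genes around the keratin filament were followed in 3 lists. Among 14 measured genes that anchor or link keratin filaments, 0 rose and 0 fell in limma, also with the block, and 4 had an unadjusted p under 0.05, against 3.57% of all genes called, 8.58% called with the block and 15.1% at that unadjusted p. Desmoplakin (Dsp), which ties keratin to desmosomes, read 10.93, 10.96 and 10.94 in control replicates 1 to 3 and 10.48, 10.69 and 10.60 in mimic replicates 1 to 3. The groups did not overlap, and the log2 difference was -0.35 (SE 0.12, adjusted p = 0.179). The cytolinkers plectin (Plec) and periplakin (Ppl) differed by -0.39 (SE 0.14, adjusted p = 0.232) and -0.46 (SE 0.18, adjusted p = 0.279, and 0.0518 with the block). The hemidesmosome integrin Itga6 differed by 0.38 (SE 0.12, adjusted p = 0.137). Over the whole list 11 members lay below 0 and 3 above, at a median of -0.23, while of all genes 14262 lay below 0 and 16665 above.

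Of 16 other intermediate filament genes 1 rose and 0 fell, against 1.89% and 1.68% of all genes, and 3 had an unadjusted p under 0.05, against 15.1%. Lamin B1 (Lmnb1), a protein of the nuclear lamina, read 6.59, 6.74 and 7.07 in control replicates 1 to 3 and 7.83, 7.70 and 7.45 in mimic replicates 1 to 3. The groups did not overlap, and it rose by 0.86 (SE 0.17, adjusted p = 0.0304 in limma). That call held without control replicate 3 or mimic replicate 3 and was lost without any of the other 4 arrays (adjusted p from 0.0883 to 0.122). Lamin B2 (Lmnb2) differed by 0.33 (SE 0.14, adjusted p = 0.297). Vimentin (Vim), the filament of mesenchymal cells and of many cultured cells, read 12.43 ± 0.11 and 12.68 ± 0.03 (SD, 3 arrays per group), a difference of 0.25 (SE 0.12, adjusted p = 0.387). Peripherin (Prph), a neuronal filament protein, differed by 0.66 (SE 0.23, adjusted p = 0.207). The median of these genes was 0.11.

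Among 13 epithelial transcription factors limma called 0 rises and 2 falls, or 0 rises and 4 falls once replicate number was a block. Of all genes 1.68% fell, and the block raised the share called in either direction from 3.57% to 8.58%. At an unadjusted p under 0.05 there were 4 factors, against 15.1% of all genes. Cdx2, the caudal homeobox factor of intestinal epithelium, read 8.62, 8.84 and 8.45 in control replicates 1 to 3 and 6.96, 7.33 and 7.05 in mimic replicates 1 to 3. All mimic arrays were below all control arrays, and Cdx2 fell by 1.52 (SE 0.16, adjusted p = 0.00373 in limma), a call that held without any single array. Klf4, a zinc finger factor of differentiating epithelia, read 9.87, 9.96 and 9.89 in control replicates 1 to 3 and 7.30, 8.61 and 8.44 in mimic replicates 1 to 3. It fell by 1.79 (SE 0.30, adjusted p = 0.0191), a call lost without any 1 control array (up to 0.0789). Its relative Klf5 differed by -0.67 (SE 0.15, adjusted p = 0.0510 in limma). It passed with the block (0.0207), with only genes above background (0.0362), with a variance trend (0.0221) and with quantile normalization (0.0419). Klf5 did not pass with median scaling (0.102), with every row fitted (0.1) or whichever array was left out (0.0628 to 0.163). Elf3, an ETS factor of epithelia, read 9.37, 10.25 and 8.47 in control replicates 1 to 3 and 6.26, 9.31 and 7.43 in mimic replicates 1 to 3. Its groups overlapped, each mimic array was below the control array of its own number, and the difference was -1.70 (SE 0.71, adjusted p = 0.306, and 0.0388 with the block). That difference ranged from -0.99 without mimic replicate 1 to -2.52 without mimic replicate 2. Trp63, the regulator of Krt5 and Krt14 in basal epidermis, read 4.20 over the 6 arrays, below the background level. The median of the factors was -0.19.

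**Figure D5:**
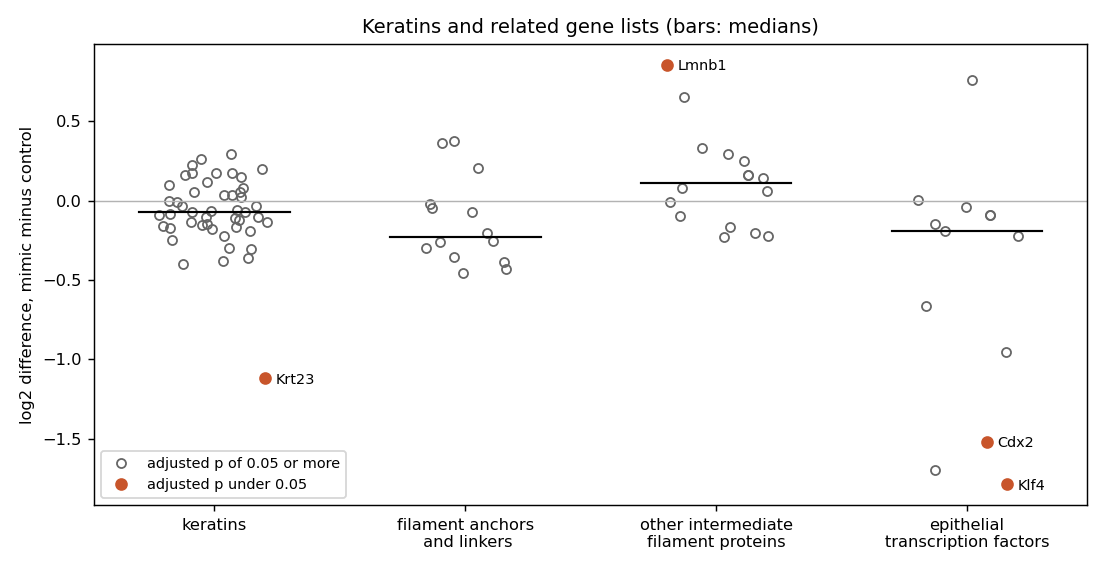
Log2 differences, mimic minus control, of the 48 keratins, 14 filament anchors and linkers, 16 other intermediate filament genes and 13 epithelial transcription factors, with medians as bars and genes called at an adjusted p under 0.05 filled and named. Apart from Krt23, keratins lie between -0.40 and 0.30, and Lmnb1, Cdx2 and Klf4 are the called genes of the other lists.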

How the data were processed

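Per the labels' protocols, RNA was isolated with Trizol and 6 ug per sample was turned into biotinylated cRNA for Affymetrix arrays. Array design, software and normalization were not given in the sources used here. From these arrays the authors deposited a log2 signal for each of 41345 transcript clusters on every array, taken here as already normalized. Their deposited comparison table holds, per the file headers, log2 group averages, a signed fold change (a score that skips the range from -1 to 1), a linear ratio and both ANOVA and FDR p-values. Symbols came from that table, and 15 that had turned into dates or numbers were dropped, which left 30927 genes. Of the keratin symbols 47 are current in the RefSeq table.

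The groups were compared by lmFit and eBayes of limma 3.58.1 (R 4.3.3), with group as the only term and no filter on genes, and with Benjamini-Hochberg adjustment over all of them and a threshold of 0.05. Confidence intervals are limma's at 95%, without adjustment. Within-array differences were tested with scipy 1.17.1 in Python 3.11.15 by an exact permutation test over the 20 groupings. On simulated data with the real means and SDs of 30927 genes, limma recovered 45 of 50 genes lowered by 2 on the log2 scale. Of 50 genes lowered by 1 it recovered 29. The simulation drew all arrays independently and changed fewer genes than limma called here, so these shares need not hold for the real arrays. Shifts smaller than 1, as most keratins showed, were not simulated. Precision is limited by the few arrays, and keratin differences had a median SE of 0.16. Alternatives were the replicate block, a filter at the background level, a variance trend, quantile and median scaling, fitting every row, leaving out each array and other background levels. Replicate numbers were taken to pair the samples, since deviations from group means correlated across genes at 0.431, 0.370 and 0.442 in same-numbered arrays. No label states this pairing.

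The named genes are all keratins above the background level or called, Krt5, Krt14, Krt17, the keratins next below the level, and from each other gene list up to 4 members with the smallest unadjusted p. A gene of the transcription factor and hepatoblast lists is not reported here and is left out of their counts. The keratins and the lists were chosen with earlier results of these data known.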

Additional observations from a re-analysis of the deposited data

How the results depend on the processing

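Krt23 was the only keratin called in any of the 12 alternative fits. With every row fitted, none was called (Krt23 at adjusted p = 0.0778), Lmnb1 lost its call, leaving 0 other intermediate filament genes, and 1 transcription factor, Cdx2, passed. The replicate block gave 4 transcription factors, and the background filter, the variance trend and quantile normalization gave 3 each. Leaving out 1 array at a time gave 0 to 1 keratins, 0 to 1 other intermediate filament genes and 1 to 2 transcription factors. For all genes the 1103 calls became 2654 with the block, 458 with every row fitted and 322 to 721 with 1 array left out. At the 99th percentile of olfactory receptor genes 8 keratins were above background. Cdx2 passed in all 12 fits. The log2 differences of Krt7, Krt8, Krt18, Krt19, Krt20 and Krt23 kept their sign in all 12 fits, while several dim keratins did not. Krt85 (-0.0059) and Krt10 (-0.0082) turned negative with quantile normalization. With 1 array left out the range was -0.41 to 0.17 for Krt79, -0.12 to 0.10 for Krt81, -0.021 to 0.13 for Krt85, -0.39 to 0.057 for Krt35, -0.022 to 0.39 for Krt32, -0.037 to 0.25 for Krt73, -0.090 to 0.099 for Krt10, -0.34 to 0.069 for Krt12, -0.32 to 0.020 for Krt14 and -0.26 to 0.042 for Krt39. Their adjusted p-values all stayed above 0.05, and the cause of these moves was not tested. With the replicate block, Krt19 minus Krt18 shifted by -0.54 and Krt8 minus Krt18 by -0.06 (exact sign-flip test, p = 0.25, the smallest that 3 pairs allow), an alternative chosen after seeing the data. Beyond the calls given, the block changed none for the keratins. Low signals limit what the dim keratins can show.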
